A study of Mus musculus with 8 samples.

Results

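The 4 acetylated regions described here, on chromosomes 6, 8 and 14, were examined for how their contacts differed with the allele of an interval on another chromosome, chromosome 13, in mouse embryonic stem cells. They are named after the genes Aass, Gpr85, Adam32 and Dnah12. Each is an anchor, that is, a merged stretch of neighbouring 5-kb bins at which contacts were counted, and a loop is a pair of anchors with its count of read pairs. The members are all loops with at least 1 end at one of these 4 anchors. There were 169 of them among the 415681 loops of the table, and the 4 anchors were among 30044. Aass had 30 loops, Gpr85 29, Adam32 70 and Dnah12 40. The anchors were picked because their contacts were higher with the D2 allele of the interval. That difference is therefore described here and not tested.

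The libraries were H3K27ac HiChIP, a method that ligates neighbouring ends of chromatin fragments and recovers the pairs carrying acetylated lysine 27 of histone H3. There were 8 libraries, 2 technical replicates of each of 4 lines, and each line stood for its genotype alone. B6 was the line B6 5-1 of strain C57BL/6J, and D2 was the line D2 5-5 of strain DBA/2J. B6-13D2 (line QJ 6-1) had the B6 genome with a chromosome 13 interval from D2, labelled B6.D2-(rs30079041-rs51756099)/Bakr. D2-13B6 (line XE 2-4) had the D2 genome with a chromosome 13 interval from B6. Its sample labels gave the markers rs29224292 and rs13469455, so the 2 exchanged segments were not labelled alike. Both are called the interval here. The far marker of D2-13B6 was rs13469455 in the sample labels and rs51756099 in the design text, and the marker positions were not used here. All lines grew in the same medium with serum, leukaemia inhibitory factor and the inhibitors PD0325901 and CHIR99021. B6-13D2 and D2 carried the D2 allele of the interval, and B6 and D2-13B6 the B6 allele. No age or sex of the lines was used.

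H3K27ac is laid down on nucleosomes at active promoters and enhancers, and within a gene body it often marks an intronic enhancer or an alternative start. A locus that changes with a distant interval on another chromosome is said to respond in trans, because the interval does not lie beside it. Zinc finger proteins and other factors that establish heterochromatin are well known sources of such effects, as they act on sites throughout the genome. Aass encodes the mitochondrial enzyme that begins lysine breakdown by the saccharopine route. Gpr85 encodes an orphan receptor of the brain, coupled to G proteins. Adam32 encodes a membrane protein of the ADAM family made mainly in the testis. Dnah12 encodes a heavy chain of the dynein motors of cilia and sperm tails. None of these genes is known as a marker of embryonic stem cells.

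The anchors differed in how they sat on their genes, on GRCm38 with GENCODE M21. The Aass anchor spanned chr6:23065001-23095000, 76.1% of it lay inside the gene (23072173 to 23132986, minus strand), and it was 38.0 kb from the annotated start. The Adam32 anchor spanned chr8:24895001-24925000 and lay wholly inside the gene (24836140 to 24948804, minus strand), 23.8 kb from the start. The Dnah12 anchor, chr14:26855001-26870000, also lay wholly inside its gene (26693274 to 26891703, plus strand), 161.7 kb from the start. The Gpr85 anchor went against the description of all 4 as intragenic. It spanned chr6:13835001-13865000, held the start of the gene (13834458 to 13839942, minus strand), and only 16.5% of it lay inside. Exons made up 7.25% of the Aass anchor, 11.8% of that of Gpr85, 4.91% of that of Adam32 and 5.41% of that of Dnah12. Of the 3 genes whose start lay outside the anchor, only Adam32 had another anchor within 5 kb of its main start.

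A short stretch of each anchor is given as an example of its sequence. It is the 200 bases with the most CpG dinucleotides, outside repeats and exons, in the 5-kb bin with the most counts. CpG dinucleotides are in capitals, the letters are those of the GRCm38 plus strand (the reference strain is C57BL/6J), and the stretches of Aass (chr6:23075251-23075450), Adam32 (chr8:24923658-24923857) and Dnah12 (chr14:26866696-26866895) are intronic, while that of Gpr85 (chr6:13850633-13850832) lies between genes.
Aass: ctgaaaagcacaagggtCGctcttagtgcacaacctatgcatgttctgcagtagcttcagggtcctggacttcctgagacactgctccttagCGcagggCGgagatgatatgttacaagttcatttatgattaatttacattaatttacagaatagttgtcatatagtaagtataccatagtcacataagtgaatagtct
Gpr85: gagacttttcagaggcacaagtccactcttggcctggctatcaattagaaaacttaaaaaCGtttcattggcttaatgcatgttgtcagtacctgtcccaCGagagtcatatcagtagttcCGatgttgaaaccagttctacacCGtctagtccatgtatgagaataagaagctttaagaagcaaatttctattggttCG
Adam32: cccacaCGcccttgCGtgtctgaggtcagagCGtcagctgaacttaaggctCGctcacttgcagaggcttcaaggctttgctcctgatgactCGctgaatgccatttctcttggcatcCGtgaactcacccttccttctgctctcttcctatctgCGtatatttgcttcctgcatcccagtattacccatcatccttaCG
Dnah12: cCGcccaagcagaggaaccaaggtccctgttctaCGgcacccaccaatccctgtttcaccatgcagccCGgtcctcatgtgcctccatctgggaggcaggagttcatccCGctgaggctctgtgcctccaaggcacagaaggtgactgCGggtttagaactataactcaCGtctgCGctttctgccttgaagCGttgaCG

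Picked for their CpG, the stretches are richer in it than the anchors as a whole. They held 3 CpG dinucleotides at Aass, 5 at Gpr85, 8 at Adam32 and 9 at Dnah12. The Gpr85 promoter is the one promoter of a member that lay in its own anchor, and its 250 bases before the start (RefSeq, whose promoter table matched 3 of the 4 genes by symbol; GRCm38.p6, chr6:13839943-13840192, minus strand, CpG in capitals) held 2 CpG dinucleotides, against a median of 6 over 32851 promoters of the same length.
Gpr85 promoter: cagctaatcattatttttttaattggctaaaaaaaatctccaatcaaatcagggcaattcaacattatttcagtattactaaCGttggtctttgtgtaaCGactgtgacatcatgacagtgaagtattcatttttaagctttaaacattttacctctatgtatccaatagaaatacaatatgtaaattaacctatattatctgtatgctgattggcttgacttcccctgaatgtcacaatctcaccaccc

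Over the whole anchor, CpG density was 7.40 per kb at Aass, 9.53 at Gpr85 and 9.73 at Adam32, against a median of 12.4 over the 341 tested anchors of the same 30-kb length. At Dnah12 it was 10.5 per kb, against a median of 12.1 over 2258 tested anchors of 15 kb. GC content was 40.1% at Aass, 38.6% at Gpr85 and 41.2% at Adam32, against a median of 44.9%, and 41.7% at Dnah12 against 44.6%. All 4 anchors thus lay below the median of their length in both measures. Repeats masked in the reference made up 38.7% of the Aass anchor and 37.0% of the Adam32 anchor, above the median of 31.5%, and 26.8% of the Gpr85 anchor, below it. The Dnah12 anchor was 25.7% masked, against a median of 28.7%. The longest stretch shared by any pair of anchors at 80% identity or more was 817 aligned bases at 92.8% identity, between Aass and Adam32. It was 100% masked as repeat and had 80484 matches of at least 400 bases in the genome, and is thus a repeat found throughout the genome.

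Library totals ran from 737955 to 1425304 counts, and every congenic library was deeper than every parental one. Levels are given in CPM, counts per 1000000 counts of the library after a correction for composition, per anchor (the sum of all loops touching it) or per loop. The labelled cell type was checked at the promoters of its markers. All 10 stem cell markers examined had a tested anchor, with mean levels of 98.4 CPM (Klf4) to 827 CPM (Nanog), and their summed level was 4238 to 4677 CPM in D2-allele libraries and 3921 to 5815 CPM in B6-allele libraries. No anchor lay at 4 of 5 primitive endoderm markers (Gata6, Gata4, Sox17, Foxa2), at 3 of 3 mesoderm markers (T, Mixl1, Eomes) or at the neural markers Pax6, Sox1 and Neurod1. The remaining endoderm marker, Pdgfra, was at 8.72 CPM. Of 5 fibroblast markers 2 were tested, Col1a1 and Col1a2, with a summed level of 46.8 to 73.5 CPM in D2-allele and 63.5 to 80.8 CPM in B6-allele libraries, and their part in the results was not tested. By edgeR's quasi-likelihood test on the anchors, Col1a1, on chromosome 11, fell with the D2 allele (-0.62 on the log2 scale, SE 0.17, FDR 0.0138), and Col1a2 differed by 0.33 (SE 0.22) without passing. When each chromosome was scaled by its own factor, Col1a1 no longer passed (-0.37, FDR 0.235), nor did it without B6 replicate 1, D2 replicate 2 or D2-13B6 replicate 2 (FDR 0.100 to 0.178). Of the stem cell markers, Dppa5a fell by 0.25 (SE 0.08, FDR 0.0420, also edgeR), a call that held in 1 of 8 fits with a library left out. In D2-13B6, 13.9% and 14.0% of counts fell on chromosome 11, where other libraries had 10.0% to 10.6%, and none of the 4 anchors lies on it.

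At the Aass anchor, contacts were 2.46-fold higher with the D2 allele. The summed level was 59.3 and 60.1 CPM in the B6 libraries and 69.4 and 49.6 CPM in D2-13B6. With the D2 allele it was 136 and 116 CPM in B6-13D2 and 160.4 and 185 CPM in D2. The groups did not overlap, and B6 and D2-13B6 could not be ordered within their spread, while D2 was the highest line. The D2-allele mean was 149 ± 29.7 CPM and the B6-allele mean 59.6 ± 8.08 CPM (SD over 4 libraries, which are technical replicates of 2 lines). The fitted difference was 1.30 on the log2 scale (SE 0.12). It was 1.07 (SE 0.18) in the B6 genome and 1.53 (SE 0.16) in the D2 genome.

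At the Gpr85 anchor the difference between alleles was the smallest of the 4. The level was 134 and 168 CPM in B6 and 182 and 150.4 CPM in D2-13B6. It was 296 and 229 CPM in B6-13D2 and 199 and 242 CPM in D2. Every D2-allele library lay above every B6-allele library, but D2 replicate 1 (199 CPM) and D2-13B6 replicate 1 (182 CPM) lay close together. Neither the 2 B6-allele lines nor the 2 D2-allele lines could be ordered, as their libraries overlapped. The fitted difference was 0.60 on the log2 scale (SE 0.10), 1.51-fold, with 0.79 (SE 0.14) in the B6 genome and 0.40 (SE 0.14) in the D2 genome.

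At the Adam32 anchor the B6-allele libraries were tightly grouped. They were at 151 and 150.3 CPM in B6 and 146 and 165 CPM in D2-13B6. The D2-allele libraries were at 253 and 223 CPM in B6-13D2 and 273 and 329 CPM in D2. The 2 B6-allele lines overlapped, and both lines with the D2 allele stood above them, D2 highest. The fitted difference was 0.80 (SE 0.10), 1.74-fold, with 0.65 (SE 0.14) in the B6 genome and 0.95 (SE 0.13) in the D2 genome.

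At the Dnah12 anchor the 4 lines fell into 4 levels with no overlap of their libraries. D2-13B6 was lowest, at 89.4 and 93.4 CPM, followed by B6 at 108 and 121 CPM and D2 at 133 and 135 CPM. B6-13D2 was highest, at 253 and 239 CPM. The lowest D2 library (133 CPM) thus stood only a little above the highest B6 library (121 CPM). The fitted difference between alleles was 0.82 (SE 0.11), 1.77-fold, with 1.10 (SE 0.14) in the B6 genome and 0.55 (SE 0.16) in the D2 genome. Of all 21211 anchors tested, 2.35% had every D2-allele library above every B6-allele library. Since the 4 members were picked on this contrast, nothing is read from the share.

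**Figure D1:**
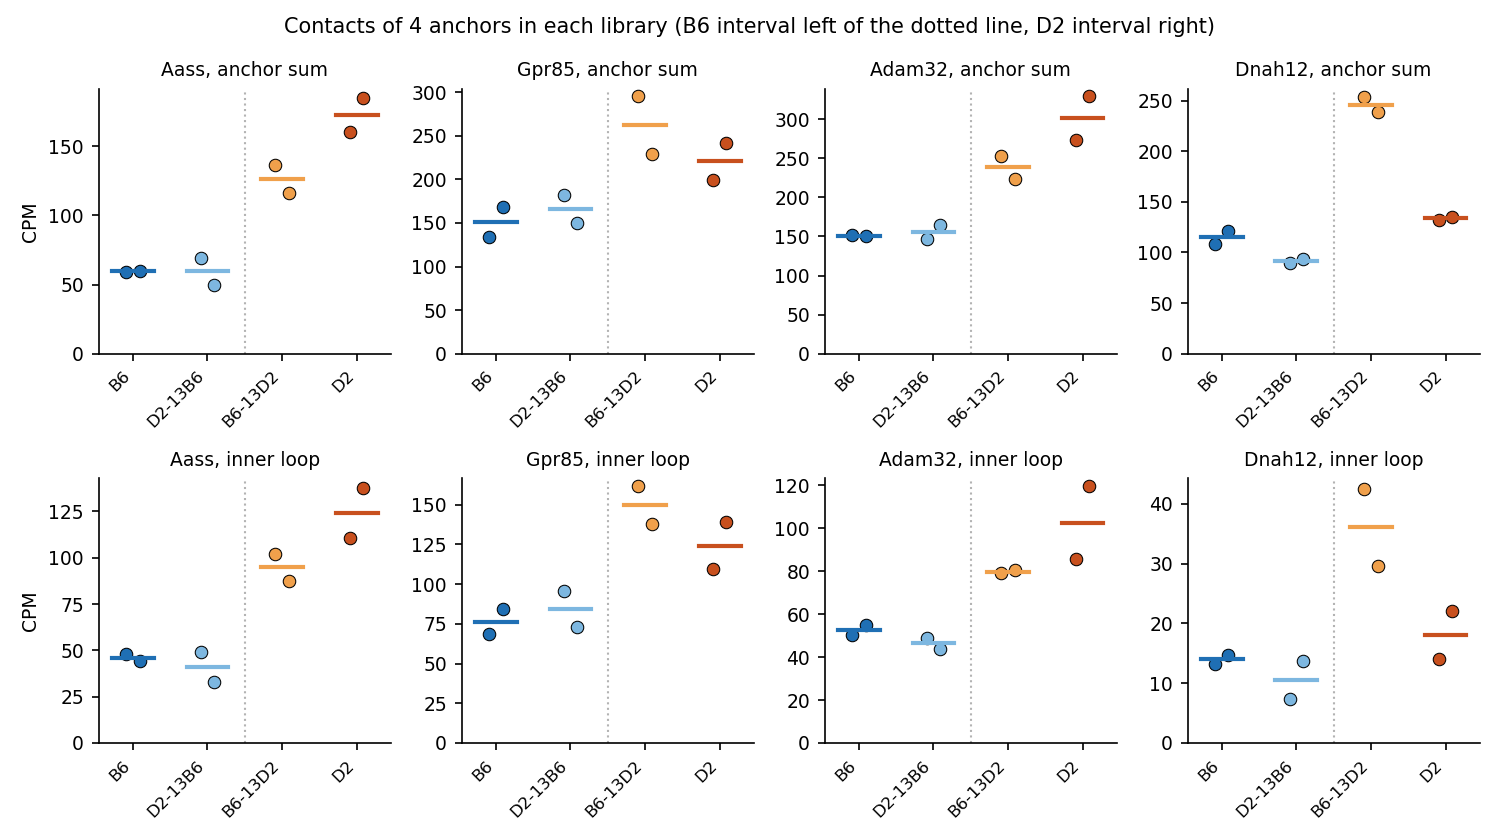
Level in CPM of each anchor sum (top) and of the loop inside each anchor (bottom) in the 8 libraries, by line; points are libraries and lines are means of 2. Aass lies at 49.6 to 69.4 CPM with the B6 interval and at 116 to 185 CPM with the D2 interval, while at Dnah12 B6-13D2 (239 and 253 CPM) stands apart from D2 (133 and 135 CPM).

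Contacts inside the anchor, between bins of the same region at least 10 kb apart, made up very different parts of the 4 sums. They were 65.3% to 81.0% of the counts at Aass over the 8 libraries, 47.0% to 62.4% at Gpr85, 27.4% to 37.5% at Adam32 and 8.26% to 17.1% at Dnah12. The share depends on the length of the anchor, since the 15-kb anchor of Dnah12 holds 1 pair of bins that far apart and each 30-kb anchor 10, so Dnah12 cannot be ranked with the others. The inner shares of the alleles overlapped at all 4 anchors, with means of 72.9% ± 5.78 for the D2 allele and 72.4% ± 5.86 for the B6 allele at Aass (SD over the same 4 libraries each), and 33.5% ± 3.36 and 32.1% ± 3.21 at Adam32. At Gpr85 the means were 56.4% ± 4.39 and 50.4% ± 2.52, and the libraries overlapped.

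The inner loop of Aass was at 48.0 and 44.1 CPM in B6 and 48.9 and 33.0 CPM in D2-13B6, and at 102 and 87.4 CPM in B6-13D2 and 110.4 and 138 CPM in D2. The inner loop of Gpr85 was at 68.4 and 84.2 CPM in B6, 95.6 and 73.2 CPM in D2-13B6, 162 and 138 CPM in B6-13D2 and 109 and 139 CPM in D2. Neither showed an overlap between alleles. The inner loop of Adam32 was at 50.1 and 54.8 CPM in B6, 48.9 and 43.8 CPM in D2-13B6, 79.0 and 80.7 CPM in B6-13D2 and 85.8 and 119 CPM in D2, again without overlap. The inner loop of Dnah12 was sparse, at 13.3 and 14.7 CPM in B6, 7.30 and 13.6 CPM in D2-13B6, 42.5 and 29.6 CPM in B6-13D2 and 14.1 and 22.1 CPM in D2. D2 replicate 1 was below B6 replicate 2 there, so the alleles overlapped.

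The difference ran along the whole of each anchor rather than sitting in 1 bin. In all 21 bins of 5 kb, the count rate was higher with the D2 allele, by ratios of 1.43 to 3.15 after scaling for depth, and in 16 of 21 bins every D2-allele library exceeded every B6-allele library. The bin counts are part of those that picked the anchors, and no share over all bins was computed. Nothing is therefore read from the 16. At Aass the ratio ran from 2.11 in bin 1 (95% interval 1.47 to 3.08) to 3.15 in bin 4 (2.40 to 4.18), and these intervals overlap. They are exact intervals for counting error only. At Dnah12 bin 3 held 46.7% of the bin counts and had a ratio of 2.13 (1.81 to 2.52), and the middle bin had the lowest mean in all 4 lines, though in B6 replicate 2 it (38.8 CPM) lay above bin 1 (35.1 CPM). The bins of Adam32 were nearly even, with 14.1% to 20.1% of the counts each and ratios of 1.55 to 1.87. A read pair inside an anchor counts for both its bins, so bins are not independent of each other.

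**Figure D2:**
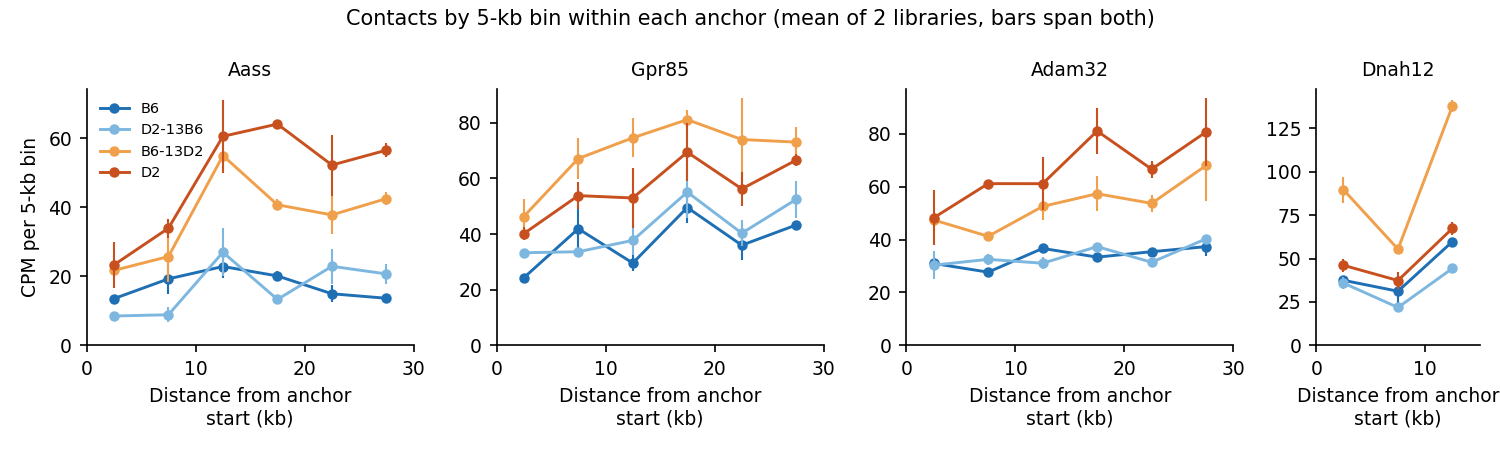
Level in CPM of each 5-kb bin against its distance in kb from the anchor's start, for the 4 lines; points are means of 2 libraries and bars span both. The 2 lines with the D2 interval (orange and red) lie above both lines with the B6 interval in every bin, from a 1.43-fold to a 3.15-fold count rate. The anchors were picked on this contrast.

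From the anchors to their partners, 29 loops had enough counts to be fitted, with 2 at Aass, 4 at Gpr85, 13 at Adam32 and 10 at Dnah12. These are the partner loops that passed the filter on low counts, and the other 136 partner loops did not. Over all partner loops, filtered or not, the count rate with the D2 allele was 2.39 times that with the B6 allele at Aass (95% interval 1.80 to 3.20, 230 counts), 1.32 times at Gpr85 (1.15 to 1.53, 763 counts), 1.67 times at Adam32 (1.48 to 1.88, 1164 counts) and 1.92 times at Dnah12 (1.69 to 2.18, 1069 counts). These intervals cover counting error only, and the counts are part of those that picked the anchors. In the sums without the inner loop, the alleles did not overlap at Aass, Adam32 and Dnah12, while at Gpr85 they did, with 65.4 to 89.1 CPM for the B6 allele and 85.9 to 130.2 CPM for the D2 allele. In 27 of the 29 fitted loops the log2 difference was above 0. In 7 of 29 every D2-allele library lay above every B6-allele library, and in 0 the reverse held, against 1.63% and 2.13% of all tested loops. These counts come from the contrast that picked the anchors. Some of the 29 loops also reached the filter of 5 counts in D2-allele libraries alone, such as those to Asb14 and to chr6:22435001-22450000. Nothing is read from the 27 or the 7.

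At Gpr85 the main partner was the neighbouring gene 2610001J05Rik (chr6:13870001-13875000), whose anchor lay 22.5 kb away from centre to centre and held 456 of the 763 partner counts. That loop was at 40.9 and 53.5 CPM in B6, 52.5 and 43.1 CPM in D2-13B6, 75.9 and 48.9 CPM in B6-13D2 and 62.3 and 64.9 CPM in D2, and the alleles overlapped. The loop to Tmem168, a gene for a membrane protein 240.0 kb away, was at 5.38 and 5.78 CPM on average in B6 and D2-13B6 and at 10.9 and 12.4 CPM in B6-13D2 and D2, with no overlap. The loop to Bmt2, which encodes an S-adenosylmethionine sensor of the mTORC1 pathway, differed by -0.07 on the log2 scale (SE 0.46). Another loop ran 642.5 kb to an anchor with no coding start (chr6:14480001-14505000) and differed by 0.44 (SE 0.44).

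Adam32 had partners on both sides. The loop with most counts, 164, ran 105 kb to the anchor of Adam9, a widely expressed sheddase, and Tm2d2, and was at means of 16.7 CPM in B6, 15.2 in D2-13B6, 21.8 in B6-13D2 and 26.7 in D2, with no overlap. The loop to the gene's own promoter, 37.5 kb away, had means of 10.5 CPM in B6, 8.67 in D2-13B6, 19.9 in B6-13D2 and 20.3 in D2, also with no overlap, and differed by 1.05 (SE 0.28). The loop to an anchor at chr8:24955001-24960000, inside Adam9, differed by 1.55 (SE 0.36), from 5.38 and 3.97 CPM in B6 and D2-13B6 to 10.9 and 17.6 CPM in B6-13D2 and D2. The loop within the body of Adam32 to chr8:24935001-24940000 differed by 0.88 (SE 0.26). The loop to Plekha2, which encodes a phosphoinositide-binding adaptor and lies 192.5 kb away, differed by 0.68 (SE 0.35). Contacts with Ido2, of the tryptophan breakdown pathway and 342.5 kb away, differed by 0.75 (SE 0.30).

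At Dnah12 the main partner lay in the same gene (chr14:26875001-26885000), 17.5 kb away, with 392 of 1069 partner counts. The loop was at 38.8 and 32.1 CPM in B6, 23.4 and 27.3 CPM in D2-13B6, 94.2 and 77.8 CPM in B6-13D2 and 40.0 and 36.4 CPM in D2. D2 and B6 overlapped, and B6-13D2 alone stood far above the others. The loop to Hesx1, a homeobox gene of the early embryo and pituitary, was likewise highest in B6-13D2, with means of 15.0 CPM in B6, 10.9 in D2-13B6, 29.3 in B6-13D2 and 14.8 in D2. The loop to Appl1, an adaptor of early endosomes, did not overlap between alleles, with means of 6.76, 6.15, 12.8 and 9.83 CPM in the same order of lines. The loop to Asb14 differed by 1.21 (SE 0.58), that to Pde12, a mitochondrial phosphodiesterase, by 0.65 (SE 0.51), and that to Il17rd, an inhibitor of fibroblast growth factor signalling, by 0.38 (SE 0.44).

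Only 2 of the 29 partner loops of Aass passed the filter on counts. The loop to chr6:23150001-23165000, upstream of the gene and with no coding start, had means of 4.05 CPM in B6, 7.62 in D2-13B6, 4.75 in B6-13D2 and 14.1 in D2. The loop to chr6:22435001-22450000, 637.5 kb away, had means of 2.36, 1.81, 4.62 and 8.07 CPM in the same order, without overlap between alleles. Its counts were 2, 2, 2 and 3 with the B6 allele and 4, 7, 6 and 7 with the D2 allele. It thus passed the filter through D2-allele libraries alone, and nothing is read from the lack of overlap.

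**Figure D3:**
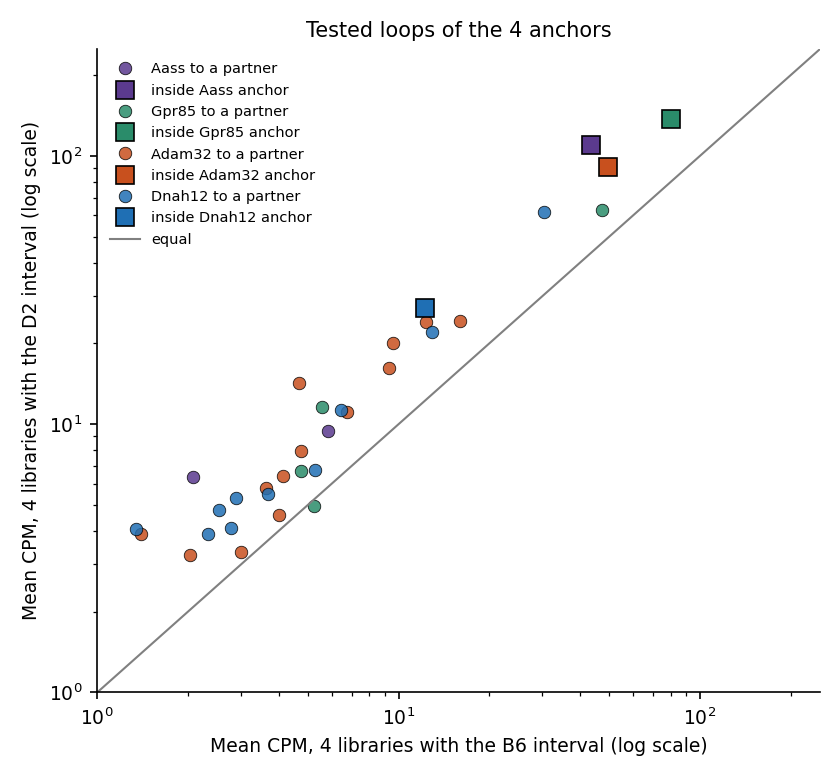
Mean CPM of each tested loop over the 4 libraries with the B6 interval (horizontal, log scale) and the 4 with the D2 interval (vertical, log scale); circles are loops to partners, squares are loops inside an anchor and the line marks equal levels. Of 29 partner loops 27 had a positive fitted difference, and all 4 inner loops lie above the line. The anchors were picked on this contrast.

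The background genome was tested apart from the interval, as D2 genome minus B6 genome averaged over both alleles, a contrast other than the one that picked the anchors. Because replicates of a line were technical, the error in each such test is that between libraries of a line, and not that between separately derived lines. Of the 4 anchor sums only that of Dnah12 changed, and it was lower in the D2 genome, with means of 112 CPM in the 4 libraries of the D2 genome and 180.5 CPM in the 4 of the B6 genome. The difference was -0.60 on the log2 scale (SE 0.11, FDR 4.09e-06, edgeR's quasi-likelihood test with Benjamini-Hochberg adjustment over all 21211 anchors). The share called among all anchors was 24.8%, and 12.9% were lower, so 1 of 4 members is near the background. At all 4 anchors every D2-allele library lay above every B6-allele library, which leaves less room for other contrasts. The share over all anchors is therefore a loose yardstick, here and in the comparison of the interval effect between genomes. At Aass the difference was 0.23 (95% interval -0.02 to 0.48, not adjusted for the number of anchors, FDR 0.188), at Adam32 0.19 (0.00 to 0.38, FDR 0.138) and at Gpr85 -0.04 (-0.24 to 0.16, FDR 0.803), all in the same test. When each library was left out in turn, the Aass value ran from 0.10 to 0.34 and the Adam32 value from 0.12 (without D2 replicate 2) to 0.26.

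Without its inner loop, a sum added after the data were seen, the Aass anchor also changed and was higher in the D2 genome, by 0.60 (SE 0.22, FDR 0.0295, the same edgeR test). Its partners then summed to 11.2 and 18.8 CPM in B6 and 32.0 and 25.3 CPM in B6-13D2, against 19.9 and 15.6 CPM in D2-13B6 and 55.7 and 52.5 CPM in D2. The genomes overlapped, as D2-13B6 lay below B6-13D2. In that fit 24.8% of all anchors were called and 11.9% were higher.

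Among the 33 tested loops of the 4 anchors, 2 changed with the background genome in the same edgeR test over loops, and 0 of the 4 inner loops did. The share called among all tested loops was 8.85% (4.3% higher and 4.55% lower), which is close to the 6.90% of the 29 partner loops. The loop within Dnah12 to chr14:26875001-26885000 fell in the D2 genome by 0.83 on the log2 scale (SE 0.18, FDR 0.000183), and it stayed past the threshold whichever library was left out. The loop from Aass to chr6:23150001-23165000 rose in the D2 genome by 1.23 (SE 0.39, FDR 0.0255). It rested on 62 counts and was no longer past the threshold without B6 replicate 1 (FDR 0.0902), B6 replicate 2 (0.0618), D2 replicate 1 (0.0986), B6-13D2 replicate 2 (0.0898) or D2-13B6 replicate 1 (0.191). Nor did it pass with no filter on counts (FDR 0.382) or by DESeq2 (FDR 0.290). At the inner loops the FDR was 0.0842 at Dnah12, where the difference was -0.69 (SE 0.26), and 0.744, 0.864 and 0.793 at Aass, Gpr85 and Adam32. The Dnah12 inner loop did pass with a filter of 20 counts (FDR 0.0382), without B6-13D2 replicate 2 (0.0488) and without D2-13B6 replicate 2 (0.0440).

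Whether the interval acted differently in the 2 genomes was tested as the effect in the D2 genome minus that in the B6 genome. By edgeR's quasi-likelihood test, 0 of the 4 anchors passed, against 4.83% of all anchors, and 1 of 4 had an unadjusted p under 0.05; DESeq2 also gave 0. The difference was -0.55 at Dnah12 (95% interval -0.98 to -0.13, FDR 0.125) and -0.39 at Gpr85 (-0.79 to 0.01, FDR 0.300), where the effect was numerically smaller in the D2 genome. It was 0.46 at Aass (-0.04 to 0.96, FDR 0.345) and 0.29 at Adam32 (-0.09 to 0.68, FDR 0.454), where it was numerically larger. When each library was left out in turn, the values ran from -0.63 to -0.47 at Dnah12, -0.58 to -0.19 at Gpr85, 0.24 to 0.72 at Aass and 0.16 to 0.43 at Adam32. Without the inner loop the Gpr85 value was -0.13 (SE 0.26, FDR 0.853). With library totals alone, which moved the median of all anchors from 0.02 to 0.25, they were -0.32, -0.17, 0.69 and 0.52 in the same order. No difference between genomes was detected, while the 95% confidence interval at Dnah12 reaches -0.98. This contrast sets the parental against the congenic lines, and those also differ in depth. Of the 33 loops, 0 passed by edgeR, against 0.606% of all tested loops, and among the 29 partner loops 0 had an unadjusted p under 0.05.

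Anchors around the members were tested for the interval effect after all counts shared with the 4 anchors had been removed. Within 500 kb there were 53 such anchors, 3 around Aass, 3 around Gpr85, 25 around Adam32 and 22 around Dnah12. By edgeR's quasi-likelihood test 3 of 53 changed (5.66%), against 6.14% of all anchors in that fit (2.87% higher). The difference was above 0 at 1 of 3 anchors around Aass, 2 of 3 around Gpr85, 15 of 25 around Adam32 (median 0.04) and 17 of 22 around Dnah12 (median 0.16), against a median of 0.0054 over all anchors. The share above 0 over all anchors was not computed. Around Dnah12 most anchors were above 0 in the B6 genome but most were below 0 in the D2 genome. The Hesx1 anchor had 0.48 and -0.25 in that order, and the nearest anchor, chr14:26875001-26885000, had 0.35 and 0.27. All 3 that passed rose with the D2 allele, and all lay near Adam32. The anchor at the Adam32 promoter (chr8:24945001-24950000) was at 21.5 and 36.4 CPM in B6, 25.8 and 20.7 CPM in D2-13B6, 41.3 and 35.3 CPM in B6-13D2 and 43.4 and 57.4 CPM in D2. B6 replicate 2 (36.4 CPM) lay above B6-13D2 replicate 2 (35.3 CPM), so the alleles overlapped there. The difference was 0.76 (SE 0.19, FDR 0.00503). At chr8:24955001-24960000, inside Adam9, it was 0.61 (SE 0.17, FDR 0.0178), and at the Ido2 anchor (chr8:24550001-24585000), on the other side and 342.5 kb away from centre to centre, 0.37 (SE 0.09, FDR 0.00786). The alleles overlapped at both, by 41.3 against 46.4 CPM inside Adam9 and 187 against 196 CPM at Ido2 (lowest D2-allele and highest B6-allele library).

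By DESeq2 only the Ido2 anchor was called (FDR 0.0460), and the other 2 got no adjusted p. The count of 3 ran from 0 to 3 when each library was left out in turn. None of these anchors passed without D2 replicate 2 or without D2-13B6 replicate 2. Without B6 replicate 1 the promoter anchor was at 0.58 (FDR 0.0834) and that inside Adam9 at 0.37 (FDR 0.295). The latter also did not pass without D2 replicate 1 (FDR 0.135) or D2-13B6 replicate 1 (0.0790), and Ido2 did not without B6-13D2 replicate 2 (0.0912) or D2-13B6 replicate 1 (0.0633). Between the member and its promoter, the anchor at chr8:24935001-24940000 differed by 0.65 (SE 0.22, FDR 0.0564), and on the other side the nearest anchor, chr8:24840001-24845000, by 0.60 (SE 0.33, FDR 0.318). The Adam9 and Tm2d2 anchor differed by 0.06 (SE 0.10, FDR 0.795) and Plekha2 by 0.03 (SE 0.10, FDR 0.929). Values further out ran both ways, with 0.41 (SE 0.30, FDR 0.490) at chr8:24495001-24500000 and -0.32 (SE 0.25, FDR 0.528) at Tcim, both named after their values were seen.

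Around the other members no anchor passed the test, with 1, 0 and 2 of them at an unadjusted p under 0.05 around Aass, Gpr85 and Dnah12. The nearest anchors of Dnah12 were chr14:26875001-26885000, in the same gene, with a difference of 0.31 (SE 0.16, FDR 0.293), and chr14:26705001-26710000, with -0.40 (SE 0.22, FDR 0.331). Those of Gpr85 were 2610001J05Rik, with 0.66 (SE 0.42, FDR 0.398), and Bmt2, with 0.14 (SE 0.31, FDR 0.862). The nearest tested anchor of Aass lay 420 kb away from edge to edge and differed by 0.20 (SE 0.49, FDR 0.877).

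**Figure D4:**
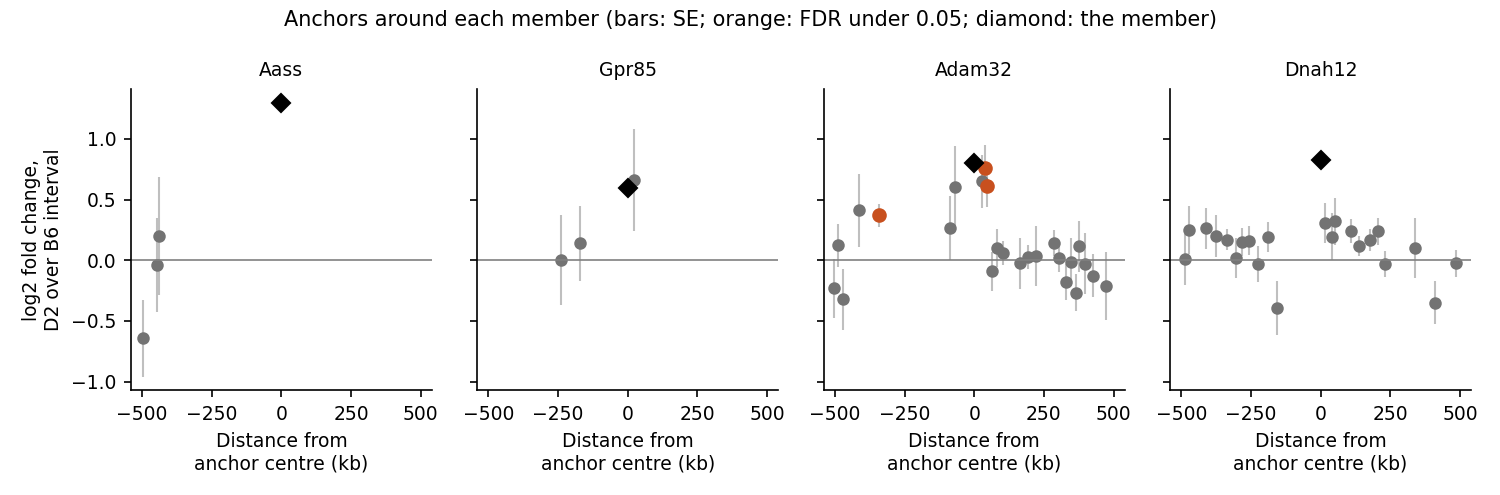
Log2 fold change (D2 over B6 interval) of tested anchors against the distance of their centre from each member's centre in kb, with counts shared with the members removed; bars are SE, orange marks an FDR under 0.05 and the diamond is the member itself. The 3 anchors that passed, at 0.37, 0.61 and 0.76, all lie around Adam32.

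Other genes of the members' pathways and families were examined at the anchors of their promoters. Of 14 other genes of lysine breakdown 8 were tested, and 0 rose and 2 fell with the D2 allele, with a median difference of -0.06 on the log2 scale. These were Pipox, a peroxisomal oxidase (-0.30, SE 0.08, FDR 0.0144), and Phykpl, a phospho-lyase acting on phosphorylated hydroxylysine (-0.25, SE 0.08, FDR 0.0476). Dhtkd1, a dehydrogenase subunit of the same pathway, differed by 0.20 (SE 0.11, FDR 0.287). Of 2 other receptors of the Gpr85 family only Gpr173 was tested, at 8.51 CPM, with -0.05 (SE 0.37, FDR 0.961). Of 29 other ADAM genes 9 were tested, and 0 passed the test, with a median of -0.02 and 3 at an unadjusted p under 0.05. Among the 9 were Adam5 and Adam9, whose sums hold loops to the Adam32 anchor, and with these removed they differed by 0.27 (SE 0.26, FDR 0.643) and 0.06 (SE 0.10, FDR 0.795). The 2 with the highest sums, not scaled for anchor length, were Adam19, at 497 CPM, with 0.17 (SE 0.08, FDR 0.237), and Adam1a, at 237 CPM, with -0.04 (SE 0.09, FDR 0.865).

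Of 21 genes of axonemal dyneins and their partners 12 were tested, with a median of 0.02, and only Dnah2, another axonemal heavy chain, passed (-0.78, SE 0.21, FDR 0.0104). Dnah8 differed by 0.10 (SE 0.10, FDR 0.633) and Dnaaf2, an assembly factor, by 0.12 (SE 0.10, FDR 0.525). The 3 genes that passed, of 30 tested over the lists, compare with 6.16% of all anchors, and 3.25% of all anchors were lower. All 3 lie on chromosome 11 and were highest in D2-13B6, at 611, 806 and 45.1 CPM for Pipox, Phykpl and Dnah2. With a scaling factor per chromosome none of them passed, and the differences were -0.04, 0.01 and -0.53. Under that scaling the 2 tested genes of the lists that passed were Adam19 and Adam23, named after their result was seen. The 3 calls also depended on single libraries, and which genes of the lists passed changed with the library left out. Over left-out libraries the differences ran from -0.39 to -0.23 at Pipox, -0.32 to -0.17 at Phykpl and -0.98 to -0.62 at Dnah2. All these values are from edgeR's quasi-likelihood test.

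Promoter anchors elsewhere whose levels followed those of a member most closely over the 8 libraries were looked up for description, by Pearson's r of log2 CPM. The libraries are replicate pairs of 4 lines and share the interval contrast, so r carries no test. For Aass these were Tmod3, Ptbp3 and Dnm1l (r = 0.974, 0.960 and 0.958), for Gpr85 the anchor of Lpar6 and Rb1, Kif2a and Pdss1 (0.970, 0.967 and 0.965), and for Adam32 the anchor of Akr1cl and Cryge, Dnm1l and Ptp4a1 (0.942, 0.937 and 0.933). The Kif2a anchor (chr13:107015001-107025000) lies on the chromosome of the interval. Its place relative to the interval was not determined, as marker positions were not used. For Dnah12 they were Nfyc, Usp28 and Capza2, with r = 0.980, 0.978 and 0.978. Capza2, which encodes a capping protein of actin filaments, had means of 126 CPM in B6, 107 in D2-13B6, 204 in B6-13D2 and 125 in D2, with B6-13D2 highest as at Dnah12. Dnm1l, the dynamin of mitochondrial fission, had means of 45.7, 50.3, 69.0 and 78.8 CPM in that order.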

How the data were processed

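Each deposited value was a whole count of read pairs per loop, not normalized, in a table of 8 libraries and in a file per library of counts per pair of 5-kb bins. The submitters' processing notes name BWA 0.7.18, SAMtools 1.19.2, edgeR 3.34.1 and the build mm10, which is GRCm38. The loop caller is not given in the sources used here. Listed bins lay 10 kb to 2 Mb apart, per the file values. The number of columns matching no sample was 0.

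Loops reaching 5 counts in 2 or more libraries (44706) and anchor sums reaching 10 counts in 2 or more (21211), each inner loop counted once, were fitted with edgeR 4.0.16 in R 4.3.3 (quasi-likelihood test, TMM factors, 1 mean per line, all 8 libraries, Benjamini-Hochberg, FDR 0.05). CPM used the same factors, rescaled so that the mean size was the mean library total. SE is the log2 fold change over the square root of F, and intervals of fold changes use t quantiles at edgeR's total degrees of freedom. Ratios of count rates carry exact 95% intervals on counts pooled over the 4 libraries of each allele. They cover counting error only, and not the spread between libraries or lines. Reads had no molecular identifiers. The fits were tested on simulated counts. Alignments used blastn 2.17.0.

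Members, gene lists and tests were chosen with earlier results of these data known. Named were all members, the up to 6 partner loops per member with most counts, the nearest and the called flanking anchors, called related genes with the 2 of highest mean CPM per list, and the 3 promoter anchors most like each member, over 2 Mb away. Of the 8 libraries none was left out. A further gene of the marker lists is not reported here.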

Additional observations from a re-analysis of the deposited data

How the results depend on the processing

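The interval difference at the 4 anchors and their inner loops kept its sign under every alternative run (RLE factors, library totals alone, a factor per chromosome, chromosome 11 left out, no filter or 20 counts in 2 libraries, DESeq2 1.42.0, the mean of log2(CPM + 0.5), the anchor sum without the inner loop, a replicate block, each library left out). The anchors were picked for this difference in the same libraries, so the kept sign gives no support to it. At the Dnah12 anchor the interval difference was 0.75 with a factor per chromosome, which moved it by more than the replicate spread of 0.07. At the Gpr85 anchor it fell from 0.60 to 0.41 without the inner loop, a move inside the wider replicate spread of 0.22 there. The Gpr85 anchor lay near 0 in the background contrast, at 0.034 with a factor per chromosome, 0.00986 without the inner loop and -0.137 to 0.0456 over left-out libraries, while its inner loop was at 0.000566 and ran from -0.157 to 0.0353. The inner loops of Aass and Adam32 ran from -0.0461 to 0.236 and from -0.0386 to 0.195 over left-out libraries. Without the inner loop, 2 member anchors were called for the background, Aass (0.605) among them. The count of member loops called for the background was 1 with no filter and 1 with DESeq2, 3 with a filter of 20 counts, which includes the inner loop of Dnah12, and 1 to 3 over left-out libraries. The count of flanking anchors was 1 with DESeq2 and 0 to 3 over left-out libraries. The count of related genes was 1 with DESeq2, and over left-out libraries both the count and the genes that passed changed. Phykpl was at 0.00868 with a factor per chromosome. The sums without the inner loop for the background and interaction, the alternatives for marker genes, and those for related genes other than the factor per chromosome and the block, were chosen after seeing the data. The cause of these changes was not tested.

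Replicate numbers did not pair the libraries, as deviations of same-numbered libraries correlated at -0.14 to 0.03 between lines. With the replicate block the Dnah12 anchor stayed past the threshold for the background (-0.60), member loops called remained 2 in number and flanking anchors 3, and related genes were 2, with Phykpl at -0.25 (FDR 0.0934). Most partner loops had few counts, and loops below the filter were described only as sums.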
